A study of Mus musculus with 30 samples.

Results

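The Schlafen genes are a family of 6 mouse genes examined here in sorted cells of the medial prefrontal cortex: Slfn1, Slfn2, Slfn3, Slfn5, Slfn8 and Slfn9. They were picked by symbol from the 23993 genes of the expression table, and Slfn9 had been noted beforehand among the largest differences between the Sst and Pvalb libraries. Values of that contrast are therefore a description, with no test. The other comparisons below (sex, stress and kind of library title) were not used to choose the genes.

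Schlafen genes lie together on mouse chromosome 11. They are known as a family induced by type I interferon and were first described in lymphocytes, where Slfn2 keeps T cells quiescent. Members fall into short proteins (Slfn1 and Slfn2), an intermediate protein (Slfn3) and long proteins with a helicase-like part (Slfn5, Slfn8 and Slfn9). Several long Schlafen proteins bind or cleave transfer RNA and so limit protein synthesis, and human SLFN11 is the best known example.

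The libraries came from C57BL/6 reporter mice in which Cre recombinase under the Sst or Pvalb gene switched on tdTomato from the Ai9 allele, heterozygous in every group, so each library holds whatever cells passed the tdTomato gate. The groups used were control Sst females (7 samples), control Sst males (6), Sst males after 14 days of chronic unpredictable stress (CUS, 3) and control Pvalb males (6), and the Methods give a single age range for the mice. A further 6 labelled samples (1 control Pvalb female, 3 CUS Sst females and 2 CUS Pvalb females) are not analysed here. Of the male Sst controls, 3 samples have running numbers as titles and 3 have longer numbers that read like dates. The 3 CUS samples also have dated titles and the female samples do not, so the kind of title overlaps with both sex and stress. The CUS titles (SS04031LL, SS04031RL and SS04031RR) share their number with a single dated control, SS04031R. The other dated controls (SST040241L and SST04241LL) have other numbers, so the number in the title also overlaps with stress. SST0-M nearly repeated the values of SST1-M, and PV0-M those of PV2-M, so each pair was averaged, which left 22 samples from 24 libraries.

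The sorted cells did not carry the markers of their label at a high level. Gad1, which makes GABA, was at 0 to 2.05 FPKM (fragments per kilobase of transcript, scaled to the mapped fragments of the library) in the 22 samples. Sst was at 0 to 49.3 FPKM in Sst controls and at 12.5 to 30.5 FPKM in Pvalb samples, and Pvalb did not exceed 5.07 FPKM in any sample. Of the genes that mark microglia, the resident macrophages of the brain, 9 were used here, and they summed to 1459 to 5427 FPKM, against 35.2 to 296.6 FPKM for the 10 interneuron markers and at most 4.44 FPKM for the 8 T cell markers. In the Pvalb group, 3 libraries labelled male held Xist at 300.2 to 333.1 FPKM together with the Y-linked Eif2s3y at 8.58 to 12.1 FPKM, whereas the other Pvalb libraries had Xist at 0.439 to 6.64 FPKM. Relative depth, read from the smallest values, ranged from 0.459 to 2.47 (SST2-F = 1), and small nucleolar RNA genes held 53.5% to 75.7% of the FPKM in the dated libraries against 1.87% to 8.29% in the others. The number of reads behind a value is unknown, so no counting interval is given. In these bulk samples fewer cells of a type and less RNA per cell cannot be told apart.

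The 6 genes span 263.8 kb of chromosome 11 in RefSeq (GRCm38.p6, the mm10 build). Slfn5 lies at chr11:82951349-82964850 on the plus strand. Slfn9 (chr11:82974316-82991830) and Slfn8 (chr11:83002125-83020810) follow on the minus strand. Slfn2 (chr11:83065112-83070678), Slfn1 (chr11:83116820-83122670) and Slfn3 (chr11:83191330-83215154) are on the plus strand. Between them lie the pseudogene Slfn10-ps and the gene Slfn4. The lncRNA gene Slfn5os (chr11:82942341-82960681) overlaps Slfn5 on the opposite strand, and whether the counting used strand is not given in the sources used here. Slfn5os was listed at 1.35 FPKM or less.

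Slfn8 and Slfn9 are neighbours and close copies, and their levels differed in pattern across the samples, so the 250 bases before 1 annotated start of each are shown (RefSeq, GRCm38.p6, minus strand, 5′ to 3′). The capitals mark the match, on either strand, to GAAA and GAAA separated by 2 bases of any kind, the core of the interferon-stimulated response element found in promoters of many interferon-induced genes. The Slfn9 stretch is chr11:82991831-82992080 and the Slfn8 stretch is chr11:83020811-83021060.
Slfn9: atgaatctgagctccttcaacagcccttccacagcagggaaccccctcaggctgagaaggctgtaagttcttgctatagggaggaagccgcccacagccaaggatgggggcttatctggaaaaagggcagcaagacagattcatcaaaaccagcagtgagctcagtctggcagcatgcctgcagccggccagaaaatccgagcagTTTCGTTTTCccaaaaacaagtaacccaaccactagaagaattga
Slfn8: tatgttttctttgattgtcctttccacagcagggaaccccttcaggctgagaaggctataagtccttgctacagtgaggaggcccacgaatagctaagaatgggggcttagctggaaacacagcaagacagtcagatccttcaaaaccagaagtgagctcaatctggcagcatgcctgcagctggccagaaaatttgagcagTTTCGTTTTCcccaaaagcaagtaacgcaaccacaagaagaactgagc
Both stretches hold the same 10 letters, 45 to 36 bases before the start of Slfn9 and 48 to 39 bases before that of Slfn8. RefSeq lists a further Slfn8 start at position 83020722, from which the same match lies 136 to 127 bases away. They are identical at 206 of 258 aligned columns (79.8%), while the other pairs of members matched at 42.0% to 49.1%.

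The Slfn5 window lies before the start at position 82952102 (plus strand), inside the annotated gene, which begins at position 82951349. A stretch of 30 bases from that window holds another match to the same letters.
Slfn5: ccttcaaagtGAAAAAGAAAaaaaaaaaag
The windows of Slfn1, Slfn2 and Slfn3 held no match. Over 32851 mouse promoter windows of the same length, 2.98% held a match, and 3 of the 6 members had one. The windows of Slfn8 and Slfn9 are identical at 79.8% of aligned columns and hold the same match, so these members are not independent. The match of Slfn5 runs into a stretch of A. The share counts windows, whereas the members were counted as genes, so nothing is read from setting these values side by side. The other interferon motif searched, TTCNNNGAA (the gamma-activated site, its own reverse complement), was in none of the members' windows and in 7.02% of all windows. A match describes letters and shows neither binding nor a response.

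Because Slfn8 and Slfn9 are close copies, reads could be shared between them. In the GENCODE M1 transcripts, the longest transcripts of both matched at 91.8% of the columns outside gaps. However, 3.30% of the distinct 75-base windows of Slfn9 (156 of 4724) occurred in Slfn8, and 7.45% occurred in Slfn8, Slfn10-ps or another Schlafen transcript. For Slfn8 the share found in any other Schlafen transcript was 6.99%. The libraries were read in 75-base pairs, so most windows of either gene told them apart at full length. Slfn5 and Slfn1 shared no window with the other Schlafen transcripts, Slfn2 shared 1.70% and Slfn3 shared 2.48%. How the authors treated reads with several positions is not given in the sources used here.

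Slfn8 was the highest member in each group, with a mean over the 22 samples of 17.8 FPKM ± 8.84 (SD). It lay above 84.4% of all genes in the table by mean. Slfn5 came next at 8.27 FPKM ± 3.45, then Slfn2 at 4.13 FPKM ± 3.74 and Slfn9 at 3.57 FPKM ± 3.89. Slfn3 averaged 0.948 FPKM ± 1.03, and Slfn1 was listed at 0 in 20 of 22 samples and at 0.0457 and 0.0990 FPKM in the others. The order below Slfn8 changed between groups. Slfn5 was second in Sst females, Slfn2 and Slfn5 were close in Sst male controls (6.42 FPKM ± 4.44 and 5.98 FPKM ± 2.75), and Slfn9 was second in Pvalb males. In all, 5 members exceeded a mean of 0.4 FPKM in each comparison and were tested, and Slfn1 was not. Of other Schlafen rows, Slfn10-ps reached 1.93 FPKM, Slfn4 0.352 FPKM and Slfn14 0.168 FPKM, and Slfnl1, a Schlafen-like gene, averaged 0.766 FPKM ± 0.263 (SD, n = 7) in females and 0.355 FPKM ± 0.342 over all samples.

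**Figure D1:**
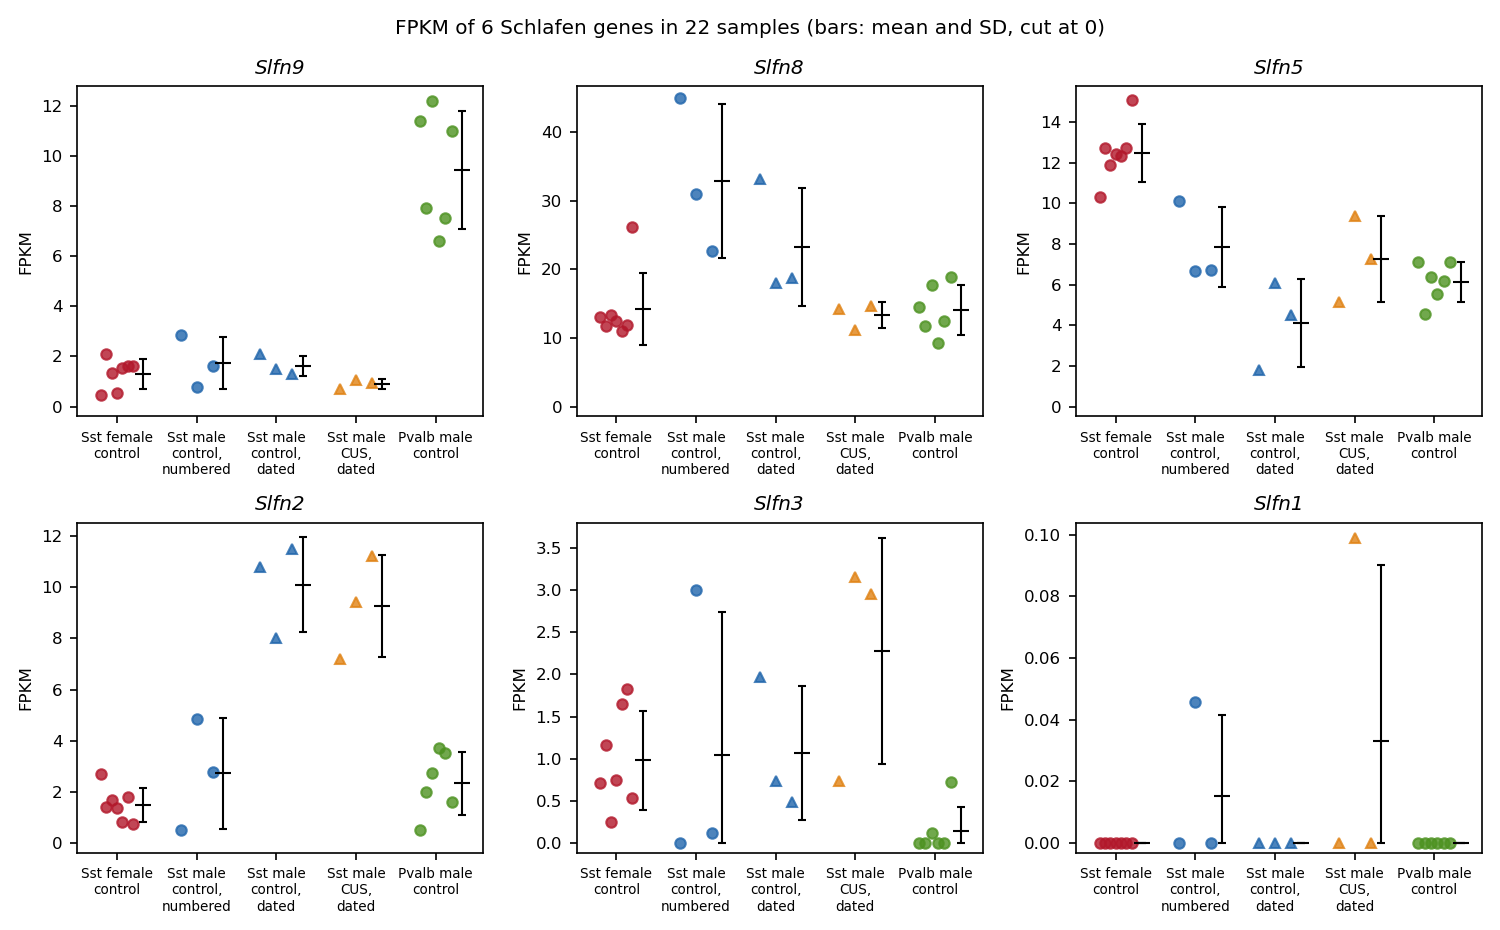
FPKM of the 6 Schlafen genes (vertical axes, 1 scale per gene) in 22 samples by group, with circles for numbered and triangles for dated titles and bars for mean and SD, cut at 0. Slfn9 is at 6.62 to 12.2 FPKM in the Pvalb samples and at 0.447 to 2.84 FPKM in the Sst samples, and Slfn2 is at 7.19 to 11.5 FPKM in the dated samples of both conditions.

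Slfn9, a long Schlafen gene, differed between the Sst and Pvalb libraries without overlap. The 6 Pvalb samples had 11.4, 7.93, 12.2, 6.62, 7.51 and 11 FPKM. The 13 Sst controls ranged from 0.447 FPKM through a median of 1.53 to 2.84 FPKM. The lowest Pvalb sample was above the highest Sst sample, and the means were 9.44 FPKM ± 2.35 and 1.48 FPKM ± 0.654, a ratio of 6.38. On the log2(FPKM + 1) scale, which shrinks changes of low genes, Sst minus Pvalb was -2.09. Among 14524 genes tested this was the 47th lowest difference and the 101st by size. Of all genes tested, 7.80% had an adjusted p below 0.05 and 0.833% did not overlap between the lines, and since Slfn9 was chosen on this contrast nothing is read from its place among them.

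The level of Slfn9 was low in each Sst group. Control males had 1.68 FPKM ± 0.711 (n = 6), control females 1.31 FPKM ± 0.599 (n = 7) and CUS males 0.903 FPKM ± 0.192 (n = 3). These neighbours overlapped in range, whereas the step up to the Pvalb samples did not. Within the Pvalb group, the 3 samples with high Xist had 6.62, 7.51 and 7.93 FPKM and the other 3 had 11, 11.4 and 12.2 FPKM. Without the former the difference was -2.38, and with those alone it was -1.80.

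The microglia markers summed to 2921 to 3546 FPKM in the Pvalb samples and to 1459 to 5427 FPKM in the Sst controls. The Sst sample with the highest sum (SS04031R, 5427 FPKM) had Slfn9 at 2.08 FPKM. Excitatory neuron markers summed to 464.0 FPKM or more in 5 Pvalb samples and to 25.3 FPKM in the sixth (PV0-M with PV2-M), in which Slfn9 was at 11.4 FPKM. The Pvalb samples also had lower endothelial markers (10.5 to 44.5 FPKM) than most Sst controls (15.7 to 105.7 FPKM). The part of any of these lists in the level of Slfn9 was not tested.

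Slfn8, next to Slfn9, did not follow it. The Pvalb samples had 14.5, 11.7, 17.7, 9.27, 12.4 and 18.9 FPKM of Slfn8, which overlapped the Sst controls (11 to 44.9 FPKM, median 18.0), and PV4-M at 9.27 FPKM was below the lowest of them. Sst minus Pvalb was 0.42 on the log2 scale (SE 0.27). Slfn9 therefore made up 36.7% to 44.1% of the summed FPKM of both genes in the Pvalb samples and 2.41% to 15.0% in the 16 Sst samples of all groups. The highest share in an Sst sample, 15.0%, was in the female SST2-F. The sum of both genes was 23.5 FPKM ± 5.89 in Pvalb males and 22.1 FPKM ± 10.8 in Sst controls, a log2 difference of -0.18. Slfn10-ps, which shares the most windows with both, was at 1.27 FPKM ± 0.346 in Pvalb samples and 0.897 FPKM ± 0.464 in Sst controls.

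**Figure D2:**
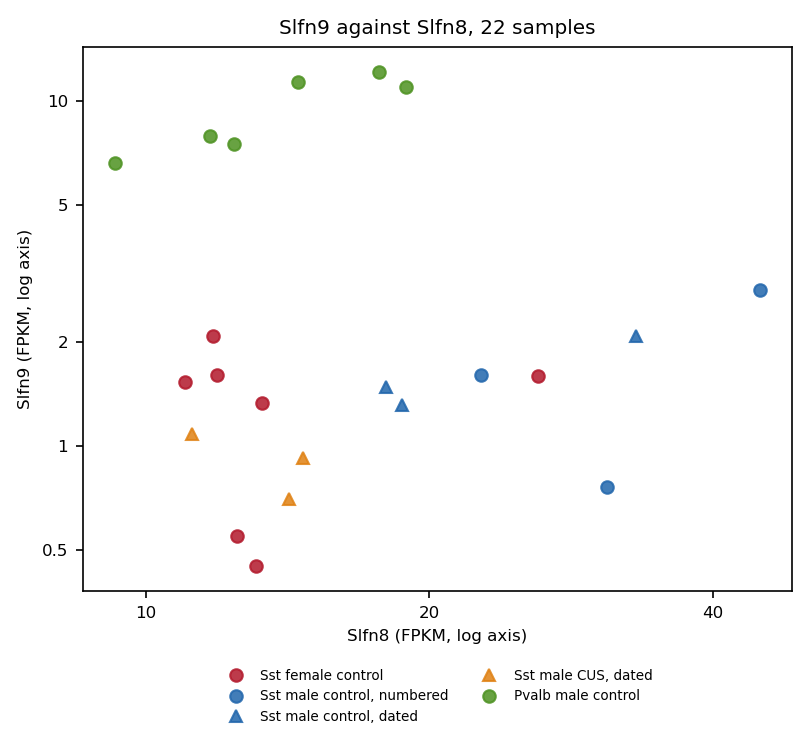
Slfn9 (vertical, FPKM, log axis) against Slfn8 (horizontal, FPKM, log axis), 1 point per sample, coloured by group, with triangles for dated titles. The 6 Pvalb samples lie above all 16 Sst samples at Slfn8 levels of 9.27 to 18.9 FPKM.

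The remaining members overlapped between the lines. Slfn3, an intermediate member, was listed at 0 in 4 of the 6 Pvalb samples, with 0.124 and 0.725 FPKM in the others, and its 13 Sst controls ran from 0 through a median of 0.738 to 3.0 FPKM. Its log2 difference was 0.74 (SE 0.26). Slfn5 differed by 0.43 (SE 0.29) and Slfn2 by 0.24 (SE 0.43). Against female Sst controls alone the difference of Slfn5 was 0.92 (12.5 FPKM ± 1.40 against 6.14 FPKM ± 0.986), and against male Sst controls alone the difference was -0.14.

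Of the 10 other genes listed in and around the cluster (Slfn10-ps, Slfn4 and the 4 named genes on each side), 9 were in the table and 6 were tested. Between the lines, the lncRNA gene AA465934 to the right differed by -2.08 on the log2 scale (SE 0.97), with overlap between the groups. Its mean FPKM was nearly equal, at 37.5 in Sst controls and 37.8 in Pvalb males. Nle1, a ribosome assembly gene to the left, differed by -0.37. By limma none of the 6 passed between the sexes or after CUS, against 11.7% and 0.00698% of all genes, and nothing is read from a count of 0 among 6. By kind of title 1 of the 6 passed, against 4.11% of all genes. This was AA465934, listed at 0 in the 3 dated males and at a mean of 132.9 FPKM in the numbered males (limma adjusted p = 0.0395), and it overlaps the gene AI450353 in position.

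**Figure D3:**
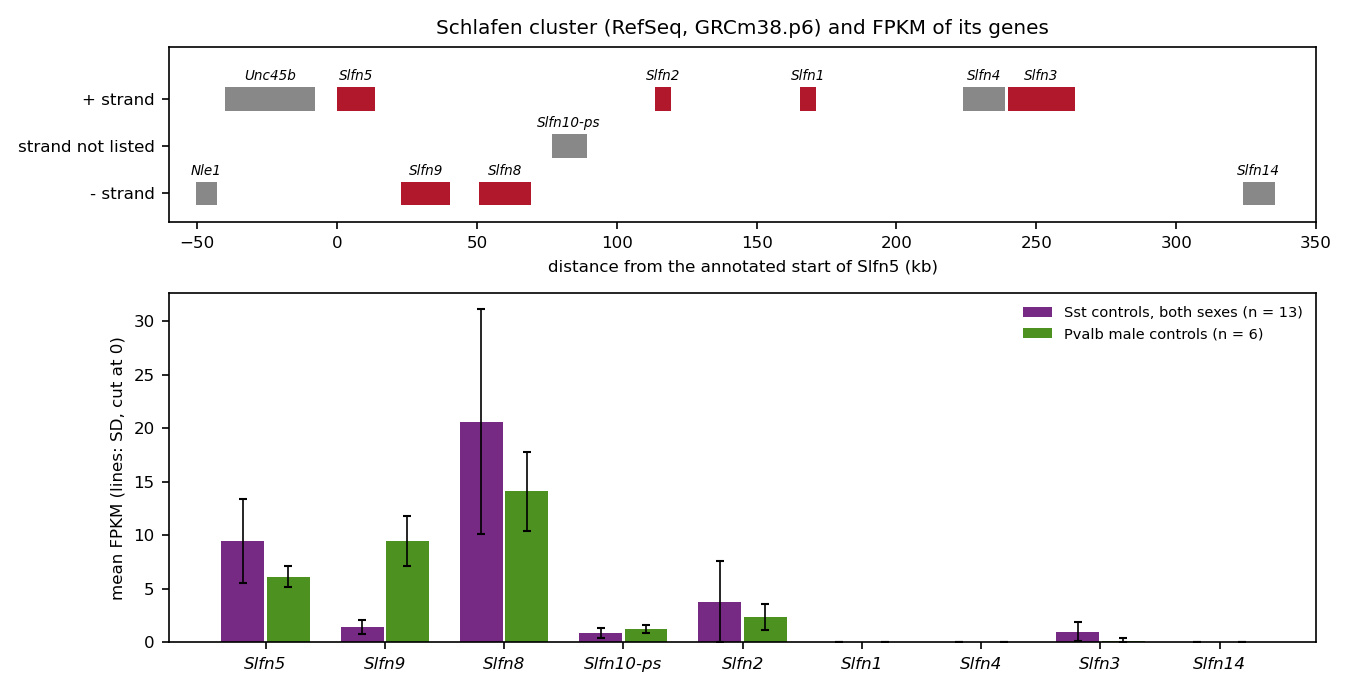
Upper panel: Schlafen genes (red) and other genes (grey) by distance in kb from the annotated start of Slfn5, by strand. Lower panel: mean FPKM in Sst controls (n = 13) and Pvalb males (n = 6), with lines for SD cut at 0; Slfn9 averages 1.48 and 9.44 FPKM while Slfn8 averages 20.6 and 14.1 FPKM.

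Between control Sst females and males, Slfn5 was higher in females and Slfn8 was lower. This comparison addressed sex differences at baseline. It tested 14498 genes with limma, of which 11.7% passed at an adjusted p of 0.05, with 6.28% above and 5.44% under the males. Of the 5 members tested, 1 passed in each direction and 3 did not pass, and the median log2 difference of the 5 was -0.22 beside 0.07 over all genes.

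Slfn5, a long Schlafen gene with interferon-induced expression, was at 10.3 to 15.1 FPKM in the 7 females (median 12.4). The numbered males had 10.1, 6.68 and 6.73 FPKM. The dated males had 1.78, 6.06 and 4.5 FPKM. Each female was above each male, though the lowest female and the highest male were close. The means were 12.5 FPKM ± 1.40 and 5.98 FPKM ± 2.75, and female minus male was 1.06 on the log2 scale (SE 0.26, limma adjusted p = 0.0216). The groups did not overlap, which held for 2.23% of all genes tested in this direction. An exact two-sided permutation test gave p = 0.00117, unadjusted and the smallest these group sizes allow. Leaving out 1 sample at a time kept the adjusted p between 0.00646 and 0.0454.

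The size of the Slfn5 difference depended on the males used. Against the numbered males it was 0.62 (SE 0.18, adjusted p = 0.0731 by limma, where 3.41% of genes passed), and against the dated males 1.49 (SE 0.24, adjusted p = 0.000502, where 41.5% passed). Each female was above each male in both subsets, as for 5.26% of genes against the numbered and 18.8% against the dated males. Slfn5os, on the opposite strand, was listed at 0 in the 6 males and in 4 of the 7 females, with up to 1.35 FPKM in the other females.

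Slfn8 was at 11 to 13.3 FPKM in 6 females and at 26.1 FPKM in the female SST-F, whose title has no number. The numbered males had 44.9, 30.9 and 22.7 FPKM. The dated males had 33.2, 18.0 and 18.7 FPKM. Apart from SST-F, each female was below each male. Female minus male was -0.91 (SE 0.24, limma adjusted p = 0.0298, 14.2 FPKM ± 5.26 against 28.1 FPKM ± 10.3), and the exact two-sided permutation test gave an unadjusted p of 0.00699. Without SST-F the difference was -1.06 (adjusted p = 0.00975, where 14.4% of genes passed) and the groups did not overlap, as for 4.50% of genes in this direction.

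The call for Slfn8 was close to the threshold. It was lost (adjusted p = 0.0582 to 0.0718 by limma) when any 1 of the 6 numbered females or the male SS04031R was left out. Against the numbered males the difference was -1.15 (adjusted p = 0.0437), and against the dated males it was -0.67 (adjusted p = 0.0555). Microglia markers moved with it. Their sum was 1459 to 1934 FPKM in the 6 numbered females, 2565 FPKM in SST-F and 2455 to 5427 FPKM in the males. Their part in the difference of Slfn8 was not tested.

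Slfn2, the T cell quiescence gene, did not pass between the sexes. The 7 females had 0.752 to 2.70 FPKM (median 1.40). The numbered males had 0.523, 4.86 and 2.78 FPKM, which overlaps the females. The dated males had 10.8, 8.0 and 11.5 FPKM, each above the females, as for 17.0% of genes in this direction. Female minus male was -1.29 (SE 0.42, limma adjusted p = 0.0577). It passed when the averaged SST0-M and SST1-M (-1.69, adjusted p = 0.00537) or SST4-M (-1.43, adjusted p = 0.0424) was left out. It was -2.18 (adjusted p = 4.85e-05) against the dated males and -0.41 (adjusted p = 0.521) against the numbered males. The 3 male samples with high Slfn2 were thus those with dated titles, and T cell markers summed to 4.44 FPKM or less in each sample. Slfn3 (0.08, 95% CI -0.60 to 0.77, adjusted p = 0.881) and Slfn9 (-0.22, 95% CI -0.73 to 0.28, adjusted p = 0.551) did not pass, and their intervals include changes in both directions.

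The kind of title was compared within the male Sst controls because it is shared unequally by the groups. Of 14230 genes, 4.11% had an adjusted p below 0.05 by limma, and none of the 5 members tested did. Slfn2 was 10.1 FPKM ± 1.86 in the 3 dated and 2.72 FPKM ± 2.17 in the 3 numbered males, a log2 difference of 1.77 (SE 0.52, adjusted p = 0.0996), or 1.22 (adjusted p = 0.0397) without the averaged SST0-M and SST1-M. It also passed by limma with near-identical libraries counted separately (2.04, adjusted p = 0.0460) and with quantile normalization (1.56, adjusted p = 0.0498). Slfn5 was lower in the dated males (-0.87, SE 0.43, adjusted p = 0.271). Neither gene overlapped between the kinds of title, and neither did 33.5% of all genes tested. Slfn8 (-0.48), Slfn3 (0.26) and Slfn9 (-0.00) overlapped.

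After CUS, no Schlafen gene passed the test over all genes in Sst males. This comparison asked how 14 days of stress altered the cells. With 3 CUS samples against 6 controls, 1 of 14319 genes passed by limma (0.00698%), and 1070 had an unadjusted p below 0.05.

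Slfn8 was the member with the largest difference. The CUS samples had 14.2, 11.2 and 14.7 FPKM, and the 6 controls ranged from 18.0 through a median of 26.8 to 44.9 FPKM. Each CUS sample was below each control, as for 3.23% of all genes tested in this direction. CUS minus control was -0.95 on the log2 scale (SE 0.31, 95% CI -1.63 to -0.27, limma adjusted p = 0.641). The exact two-sided permutation test gave an unadjusted p of 0.0238, the smallest possible with 3 against 6. Against the dated controls alone (33.2, 18.0 and 18.7 FPKM) the difference was -0.71 (SE 0.25, adjusted p = 0.647, where 0.00705% of genes passed), without overlap, as for 9.39% of genes in this direction. Against the numbered controls it was -1.19 (SE 0.28, limma adjusted p = 0.0352), where 16.1% of genes passed. Of the dated controls, SS04031R, whose title number the CUS samples share, had 33.2 FPKM. The microglia markers summed to 1948 to 2295 FPKM in the CUS samples, below each of the 6 controls (2455 to 5427 FPKM). Oligodendrocyte markers summed to 1502 to 1842 FPKM after CUS and 365.2 to 1379 FPKM in the controls, and endothelial markers to 112.6 to 179.9 FPKM and 15.7 to 99.4 FPKM, so both were higher in each CUS sample than in each control. The part of these 3 lists in the difference of Slfn8 was not tested.

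Slfn9 was at 0.702, 1.08 and 0.922 FPKM after CUS. The difference from control males was -0.46 (SE 0.28, 95% CI -1.08 to 0.16, limma adjusted p = 0.641). The CUS samples were below the 3 dated controls (1.31 to 2.08 FPKM) and overlapped the numbered controls (0.762 to 2.84 FPKM). The direction of Slfn9 and Slfn8 was the same against either kind of control.

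For Slfn2 and Slfn5 the direction turned with the controls chosen. Slfn2 was at 7.19, 9.40 and 11.2 FPKM after CUS, with differences of 0.76 against all controls, 1.65 against the numbered controls (adjusted p = 0.0748 by limma) and -0.12 against the dated controls (adjusted p = 0.839). Slfn5 was at 5.12, 9.38 and 7.28 FPKM, with differences of 0.33, -0.11 and 0.76 in the same order. Slfn3 was at 0.736, 3.15 and 2.95 FPKM, 0.76 above controls (SE 0.48, adjusted p = 0.642), and it overlapped both the numbered controls (0 to 3.0 FPKM) and the dated controls (0.492 to 1.97 FPKM).

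**Figure D4:**
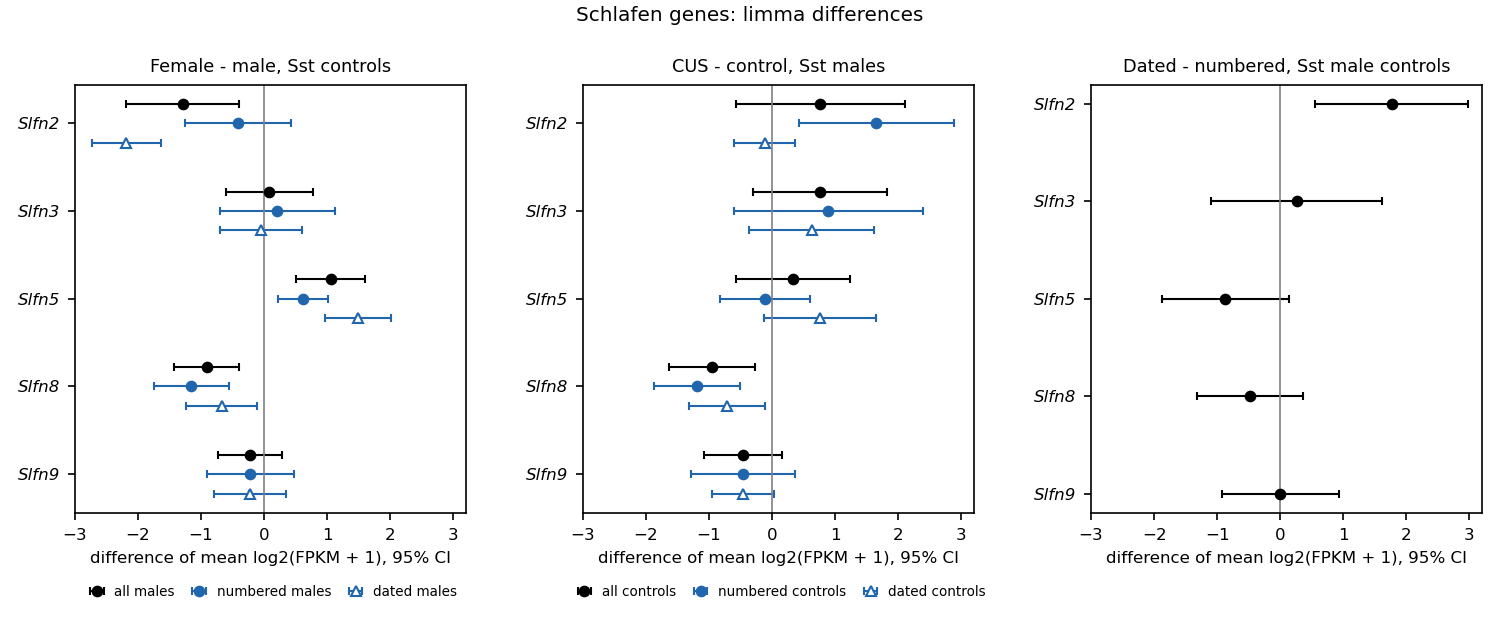
Differences of mean log2(FPKM + 1) with 95% confidence intervals from limma (horizontal axis) for the 5 Schlafen genes tested, by sex, CUS and kind of title. Slfn8 lies below 0 by sex and after CUS with each set of males, while Slfn2 moves from -0.41 against numbered to -2.18 against dated males.

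Genes of the interferon pathway were read from lists of the same kind. In the interferon signalling list (receptors, kinases, transcription factors, Socs1 and Usp18), 16 of 16 genes were tested. By sex, 1 was higher and 3 were lower in females past the threshold, and the list's median log2 difference was -0.25 beside 0.07 over all genes (11.7% of all genes passed). The interferon gamma receptor chains Ifngr1 (61.3 FPKM in females and 161.1 FPKM in males, difference -1.27, limma adjusted p = 0.0106) and Ifngr2 (-0.78, adjusted p = 0.0296) were lower, as was the transcription factor Irf1 (-0.85, adjusted p = 0.0381). Stat2, a transcription factor activated by type I interferon, was higher (13.3 and 7.76 FPKM, difference 0.76, adjusted p = 0.0271). Against the numbered males alone, 2 of the 16 passed, both lower, where 3.41% of all genes passed.

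In the interferon-induced list, 29 of 30 genes were tested by sex, and 3 were higher and 1 was lower in females, a share close to the 11.7% of all genes that passed. Oasl2 (7.61 and 2.30 FPKM, difference 1.29) and Oas2 (2.32 and 0.418 FPKM, difference 1.20), members of the oligoadenylate synthetase family that senses double-stranded RNA, were higher in each female than in each male (limma adjusted p = 0.0161 and 0.00933). Such a lack of overlap held for 2.23% of all genes tested in this direction. Ifi44 was also higher (0.97, adjusted p = 0.0387), and Parp14 was lower (-0.77, adjusted p = 0.0336). The list's median was -0.04. Against the numbered males none of the 29 passed, where 3.41% of all genes did, and nothing is read from that count. Across the lines 25 of 28 interferon-induced genes were on the higher side in Sst samples, with a median of 0.60 beside 0.00 over all genes. By limma 2 of the 28 passed, both higher in Sst samples, a share close to the 7.80% of all genes. As for the Schlafen genes, this contrast is a description, and nothing is read from these counts. Isg15, a ubiquitin-like protein and 1 of those 2, averaged 4.51 FPKM in Sst controls and 0.346 FPKM in Pvalb samples. Slfn9 was on the lower side there.

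After CUS none of the 16 signalling genes and none of the 27 induced genes passed by limma, where 1 of 14319 genes passed. By kind of title, where 4.11% of all genes passed, none of the 16 signalling genes did and 1 of 28 induced genes did, Gbp3, a guanylate-binding protein (14.3 FPKM dated and 3.64 FPKM numbered, difference 1.76, adjusted p = 0.0488). In the list of 6 genes for transfer RNA cleavage and modification, 1 was lower in females (Nsun2, a cytosine methyltransferase, -0.63, adjusted p = 0.0412), against 11.7% of all genes. None of the 6 passed after CUS, and 1 was higher in the dated males (Elac2, which trims the 3′ end of transfer RNA precursors, 2.36, adjusted p = 0.0352), against 4.11% of all genes. 

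The genes most like each member in pattern were ranked by Pearson's r of log2(FPKM + 1) over the 22 samples, which share lines, sexes and kinds of title. For Slfn9 they were Neurl1a (0.90), Smg8 (0.86) and Zdhhc1 (0.86). For Slfn8 they were D15Ertd621e (0.92), Tns3 (0.92) and the lysosomal protease Ctsl (0.91). Those of Slfn5 were Tgfb1i1 (0.91), 5031410I06Rik (0.91) and the interferon-induced membrane protein Ifitm3 (0.88). For Slfn2 they were Ubb (0.94), Cdkal1 (0.93) and Pik3ap1 (0.93). Slfn3 was most like Phf11c (0.82), Gm8817 (0.82) and Usp18 (0.80), and Usp18 removes the interferon-induced modifier Isg15 from proteins. Between members r ran from -0.63 (Slfn2 with Slfn5) to 0.45 (Slfn2 with Slfn3), and that of Slfn8 with Slfn9 was -0.08.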

How the data were processed

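FPKM values of 23993 genes in 24 libraries were deposited by the authors in a single table. The Methods name trimming, mm9 with TopHat2 and then HISAT2 on mm10 with StringTie, and the submitters' processing notes list TopHat2, Cufflinks, Cuffdiff and mm10. The Methods also name removal of outlying samples and ComBat, and whether these touched the deposited values is not stated. Counts were not used here, so DESeq2, the authors' test, was not repeated.

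The members and the gene lists were chosen with earlier results of these data known. Named genes were the 6 members, up to 3 genes per list with the largest difference among those that passed, the 3 genes closest in pattern, and neighbours. Stat2 and Parp14, each the last of 4 that passed, were added after their values were seen. Near-identical libraries were averaged (SD of the log2 ratio 0.0170 and 0.0212, against 0.225 and 0.267 for the next closest pairs). Values were compared as log2(FPKM + 1) with limma 3.58.1 in R 4.3.3 (trend and robust, two-sided, Benjamini-Hochberg over all genes tested, threshold 0.05), for genes with mean FPKM above 0.4. The study gives its sequencing n as mice for the Sst and Pvalb contrast, but the labels do not tie libraries to mice, so p-values measure the spread between these samples. In simulated data the procedure recovered 63.0% of genes changed by 1 and 98.0% of those changed by 2 (log2) with 7 against 6 samples, 47.0% and 95.0% with 3 against 6, and 12.0% and 71.0% with 3 against 3. Whether these shares hold at the spread of the male samples was not tested. The SD of log2(FPKM + 1) in control Sst females and males was 0.15 and 0.68 for Slfn5. It was 0.37 and 1.16 for Slfn2, and 0.41 and 0.38 for Slfn9. Python 3.11.15 with scipy 1.17.1 and biopython 1.88 was used elsewhere. Promoter windows are from RefSeq (GRCm38.p6), in which all 6 members were found. Transcripts are from GENCODE M1, whose older build was not used for coordinates. Amino acid sequences were not used here. Alternatives covered filters, pseudocounts, scaling, the choice of males, a block on title numbers and left-out samples. Some items are not reported here.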

Additional observations from a re-analysis of the deposited data

Results flagged for a closer look

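In all, 3 values lay apart from the rest of their group, by a gap to the nearest sample that was large for the range (Dixon's test, 16 groups of 6 or 7 samples examined; chance flags about 1 in 20). Slfn8 was at 26.1 FPKM in the female SST-F and at 11 to 13.3 FPKM in the other 6 females; the 9 microglia markers summed to 2565 FPKM in SST-F and to 1459 to 1934 FPKM in the others. Slfn3 was at 0.725 FPKM in PV6-M and at 0 to 0.124 FPKM in the other Pvalb samples. Slfn1 was at 0.0457 FPKM in SST3-M and listed at 0 in the other 5 male Sst controls, a value far under the limit of 0.4 FPKM used for testing. When all other values are 0, any value above 0 is flagged. The chance rate of 1 in 20 does not apply to groups listed mostly at 0, here those of Slfn1 and Slfn3.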

How the results depend on the processing

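The number of genes called moved more than the members did. By sex, 1699 genes became 493 against numbered and 6032 against dated males, and 667 (without SS04031R) to 3552 (without SST0-M and SST1-M) with 1 sample left out, with 759 to 792 without any of the 6 numbered females and 953 or 1087 without another dated male. After CUS, 1 gene became 2309 against numbered controls, 6 with controls of both sexes, 3 without a filter or with near-identical libraries counted separately, and 1 to 3 with 1 sample left out. By kind of title, 585 became 381 without a filter, 1091 with quantile normalization, 1769 with near-identical libraries counted separately, and 54 to 149 with 1 sample left out, or 1962 without SST0-M and SST1-M. Between the lines, 1133 became 491 with male and 3638 with female Sst controls, 2214 with CUS samples added, and 389 to 2130 with 1 sample left out (389 to 428 without PV1-M, PV4-M or PV5-M, 717 without PV6-M, 1910 without SST0-M and SST1-M, 2130 without PV0-M and PV2-M). It was 14 without the Pvalb libraries with Xist above 100 FPKM and 2305 with those alone; this limit, SST-F and the added CUS samples were chosen after seeing the data, because the 2 planned settings (Xist above the lowest female library) selected no library.

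Slfn5 by sex kept its direction in all 12 other settings and lost its call against numbered males and under the block. Slfn8 by sex kept its direction, with 2 calls lost among the same 12. The direction of Slfn9 between the lines was the same in all settings (from -2.69 with a pseudocount of 0.1 to -0.18 for the sum with Slfn8). Since Slfn9 was chosen on this contrast, nothing is read from that. Slfn3 by sex turned to -0.05 against dated males, -0.06 with quantile normalization, -0.08 under the block and -0.00 with a pseudocount of 5, and it ran from -0.09 to 0.31 with 1 sample left out. After CUS, Slfn2 turned to -0.12 against dated controls and with title as a covariate, and Slfn5 to -0.11 against numbered controls and -0.24 with controls of both sexes. Slfn9 by kind of title turned to 0.05 with a pseudocount of 0.1 or a common median, and ran from -0.28 to 0.28 with 1 sample left out, and Slfn3 from -0.10 to 0.90. Slfn2 by sex passed with a pseudocount of 5 (adjusted p = 0.0464) and with quantile normalization (adjusted p = 0.0156, both by limma). The cause was not tested.

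Samples that share a title number had correlations of deviations of -0.06 to 0.06 by sex and 0.01 to 0.22 between lines. With few pairs and no unmatched pairs beside them, these values cannot tell whether title numbers pair samples. A replicate block on the shared numbers, with 3 against 3 samples, left 11 genes called by sex and 9 between the lines. Without counts, low values such as those of Slfn1 and Slfn3 cannot be given a counting error.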
